A study of Botryllus schlosseri with 27 samples.

Results

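The membrane ectoenzyme homologs of the colonial tunicate Botryllus schlosseri described here are Bot_rep_c54243, whose best human match is Glutamyl aminopeptidase, and Bot_c899, whose best human match is ectonucleotide pyrophosphatase/phosphodiesterase family member 1 (ENPP1). These are 2 of 50106 contigs of an EST assembly in which RNA-seq reads were counted over 27 libraries. Both were chosen from contigs that the study had listed for a difference between old and young colonies, so the measured old and young levels chose them. Those levels are therefore given as values without a test. The best Ciona intestinalis match of Bot_rep_c54243 was an uncharacterized protein, and that of Bot_c899 was a protein named for ENPP3. The homolog names are therefore sequence matches and not tested enzyme activities.

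Glutamyl aminopeptidase, or aminopeptidase A, is a zinc peptidase anchored at the cell surface that removes acidic residues from the amino terminus of peptides. In mammals it converts angiotensin II to angiotensin III and is abundant on the brush border of the small intestine and the kidney tubule. ENPP1 is a cell surface phosphodiesterase that, in mammals, splits extracellular ATP into AMP and pyrophosphate, an inhibitor of mineralization. Its relative ENPP3 is found in mammals on intestinal epithelium and on basophils.

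RNA came from whole wild-type colonies bred and raised in the laboratory and taken at blastogenic stage B2. Lines SB825, SMG (SMGO in the names of its young libraries) and SMH were each sampled, untreated, as an old colony of 3 years, a colony of 2 years and a young colony of 4 months. Each line and age had 3 libraries, described by the study as 3 systems, which are clusters of zooids. The reads of these 3 libraries were summed to 1 colony, which was the replicate, so each age had 3 colonies. By the labels, each younger colony is an F1 of the next older one in its line, so age and generation cannot be told apart. Levels are CPM, the reads of a contig scaled to a fixed library total after TMM adjustment, and the table held 31013902 to 48426188 reads per library. No contig lengths were at hand, so shares, ratios and sums of reads over contigs are not corrected for length and are read only between samples.

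The Glutamyl aminopeptidase homolog was at a similar level in old and 2-year colonies and far lower in young colonies. Bot_rep_c54243 was at 12.5 CPM in the old SB825 colony, 8.78 CPM in old SMG and 7.82 CPM in old SMH. At 2 years it was at 11.3, 9.06 and 6.91 CPM in the same order of lines. In the young colonies it was at 0.673, 0.683 and 0.598 CPM. The age means were 9.68 ± 2.45 CPM for old, 9.08 ± 2.19 CPM for 2-year and 0.651 ± 0.046 CPM for young colonies (SD, n = 3 colonies each). Every young colony lay below all 6 others. By library, the lowest, median and highest values were 6.46, 8.70 and 15.7 CPM in old colonies, 3.87, 8.82 and 16.0 CPM at 2 years, and 0, 0.414 and 1.52 CPM in young colonies. No young library reached any old or 2-year library, while the old and 2-year libraries overlapped. The young libraries held 0 to 60 reads of the contig. The library at 0 was young SMG library 3, where 0 read pairs allow up to 0.173 CPM, the level of 3 pairs, by counting error alone.

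The ENPP1 homolog was also far lower in young colonies than at both older ages, with a wide spread between lines at 2 years. Bot_c899 was at 76.5, 53.5 and 69.8 CPM in the old SB825, SMG and SMH colonies. At 2 years it was at 118.1, 40.1 and 77.8 CPM, and in young colonies at 7.73, 7.68 and 3.52 CPM. The means were 66.6 ± 11.8 CPM for old, 78.7 ± 39.0 CPM for 2-year and 6.31 ± 2.42 CPM for young colonies (SD, n = 3 colonies each). The lowest, median and highest libraries were at 41.7, 64.9 and 95.4 CPM in old colonies, 26.6, 83.6 and 132.5 CPM at 2 years, and 1.79, 4.27 and 14.7 CPM in young colonies. As for the aminopeptidase homolog, the young libraries lay below all others and those of the 2 older ages overlapped. Because whole colonies were sequenced, fewer cells of a type and less RNA per cell cannot be told apart.

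**Figure D1:**
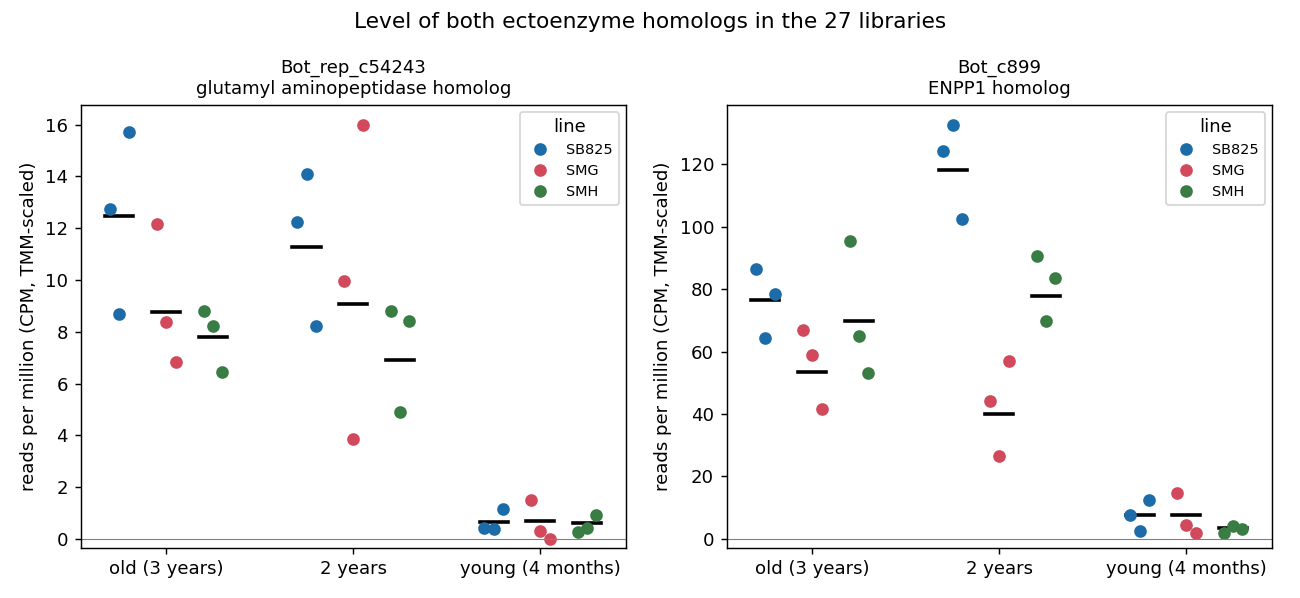
Points are single libraries and black bars are the level of the 3 summed libraries of a colony, in CPM on a linear axis, by age and line for Bot_rep_c54243 (left) and Bot_c899 (right). The young libraries reach 1.52 and 14.7 CPM and lie below every old and 2-year library.

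Ordered by level, the 9 colonies gave 1 clear step for Bot_rep_c54243, between 2-year SMH (libraries at 4.89 to 8.82 CPM) and young SMG (0 to 1.52 CPM). All other neighbours in that order had overlapping libraries, from old SB825 at the top through 2-year SB825, 2-year SMG, old SMG and old SMH, and among the young colonies. For Bot_c899 the order ran from 2-year SB825 through 2-year SMH, old SB825, old SMH, old SMG and 2-year SMG to young SB825, SMG and SMH. Here a pair of neighbours did not overlap at 2 places. One was 2-year SB825 (102.4 to 132.5 CPM) above 2-year SMH (69.7 to 90.4 CPM), and the other 2-year SMG (26.6 to 56.9 CPM) above young SB825 (2.67 to 12.6 CPM).

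Within lines, the log2 level of Bot_rep_c54243 in young against old colonies differed by -4.21 in SB825, -3.68 in SMG and -3.71 in SMH. For Bot_c899 the same differences were -3.31, -2.80 and -4.31. Over the 3 lines together, the fitted log2 difference of young minus old was -3.94 (SE 0.41) for Bot_rep_c54243 and -3.45 (SE 0.43) for Bot_c899. These values chose the contigs and were not tested. The 2-year colonies, which the choice did not use, differed from the old colony of their line by a log2 mean of -0.092 ± 0.12 for Bot_rep_c54243, with values from -0.18 to 0.05 (SD, n = 3 lines). For Bot_c899 this mean was 0.12 ± 0.52, from -0.42 in SMG to 0.63 in SB825. Against the young colony of their line, whose low level was part of the choice, the log2 mean was 3.78 ± 0.27 for Bot_rep_c54243 and 3.59 ± 1.08 for Bot_c899.

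**Figure D2:**
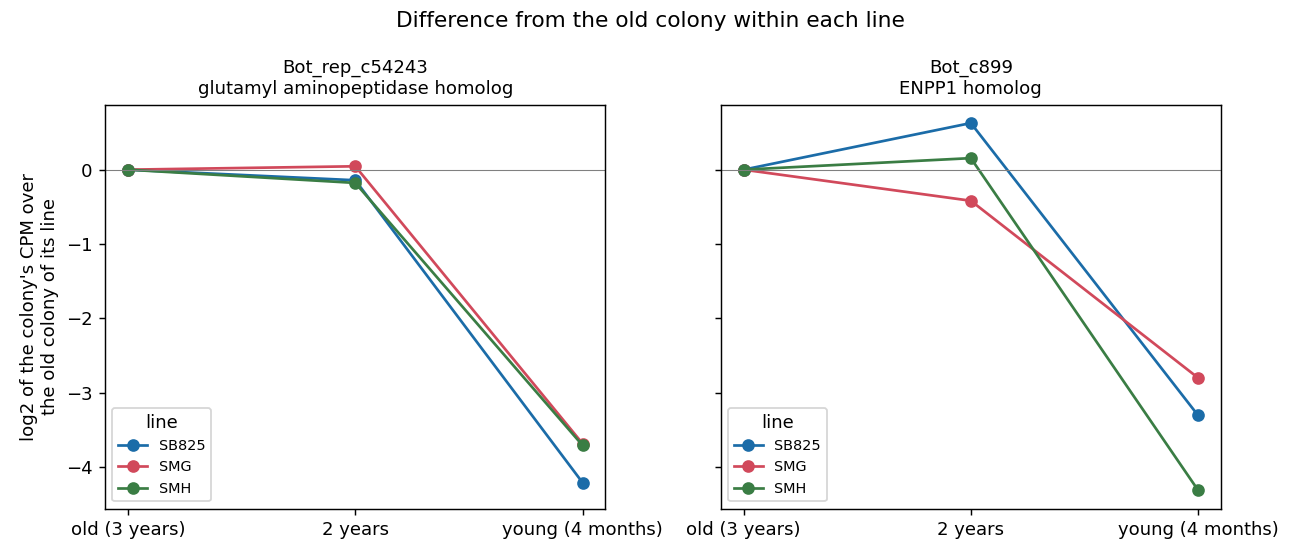
Log2 of a colony's CPM over the CPM of the old colony of its line, at each age, for Bot_rep_c54243 (left) and Bot_c899 (right), with 1 line of points per line of animals. The 2-year points lie between -0.42 and 0.63, and the young points between -4.31 and -2.80.

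Whether the 2-year level departed from the midpoint of old and young was tested. This contrast is orthogonal to the one that chose the contigs, but it still holds their old and young values. The choice also favours little spread within an age, which can make the SE here smaller. The log2 level at 2 years stood 1.85 (SE 0.27) above the mean of the old and young log2 levels for Bot_rep_c54243. In edgeR's quasi-likelihood test over 43920 contigs it ranked 8 by p (unadjusted p = 9.7e-05, Benjamini-Hochberg adjusted p = 0.53). For Bot_c899 the value was 1.94 (SE 0.38), at rank 34 (unadjusted p = 8.0e-04, adjusted p = 1.00). Neither contig passed the threshold of 0.10, and 0 contigs of all tested did (0% called), while 1042 had an unadjusted p under 0.05. DESeq2 on the same colonies called 118 contigs, both homologs among them, with adjusted p-values of 2.3e-06 and 0.020. With the line as a block, since colonies of a line are 1 family, the values were 1.84 and 1.87 and edgeR's adjusted p-values 0.87 and 1.00. With the 27 libraries as separate samples edgeR called both, and with the colony as a random block on those libraries limma called neither, at 1.67 (SE 1.26) and 1.90 (SE 0.80) with an adjusted p of 1.00 for each. Whether the departure passed the threshold rested on the tool and on how libraries of a colony were treated. Of 1888 fitted contigs from the study's list by age difference, 81.5% lay above the midpoint, with a median of 0.97. Over the 42493 contigs also fitted for old against young these values were 49.5% and -0.006. A level above the midpoint is therefore no trait of these 2 contigs.

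Differences between lines over the 3 ages were not called for either homolog. Bot_rep_c54243 gave log2 differences of -0.28 (SE 0.25) for SMG minus SB825, -0.53 (SE 0.25) for SMH minus SB825 and -0.25 (SE 0.25) for SMH minus SMG, with edgeR's adjusted p-values of 0.60, 0.42 and 0.76. Bot_c899 gave -0.63 (SE 0.43), -0.58 (SE 0.42) and 0.05 (SE 0.43), with adjusted p-values of 0.48, 0.61 and 0.98. The background in these contrasts was low, with 4.55%, 1.43% and 0.464% of 44811 contigs called. The old and young colonies that chose the contigs are among the colonies used here. That choice favours little spread between lines, so the missing calls do not show that the lines are alike. The last value of Bot_c899 lay within its error of 0 and changed sign with median-of-ratios size factors but not with library totals.

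At 2 years alone, 1 of the 2 homologs differed between lines. Bot_c899 was at 124.2, 132.5 and 102.4 CPM in the 3 libraries of SB825, at 44.3, 26.6 and 56.9 CPM in those of SMG, and at 90.4, 69.7 and 83.6 CPM in those of SMH. The 3 lines did not overlap. SMG was lower than SB825 by a log2 difference of -1.48 (SE 0.26, edgeR adjusted p = 0.0014), and SMH was higher than SMG by 0.93 (SE 0.26, adjusted p = 0.020). SMH against SB825 gave -0.56 (SE 0.25, adjusted p = 0.10) and did not pass, as the unrounded value lay just above the threshold. In these contrasts 62.5%, 47.9% and 57.4% of 40985 contigs were called, so a call was the common outcome. Each line had 1 colony of this age, so the test compares these colonies by the spread of their libraries and not the lines.

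Bot_rep_c54243 was at 12.2, 14.1 and 8.21 CPM in the 2-year SB825 libraries, at 9.95, 3.87 and 16.0 CPM in SMG, and at 8.82, 4.89 and 8.40 CPM in SMH. The lines overlapped, and none of the 3 contrasts was called. They were -0.22 (SE 0.50) for SMG minus SB825, -0.65 (SE 0.51) for SMH minus SB825 and -0.43 (SE 0.51) for SMH minus SMG, with edgeR adjusted p-values of 0.75, 0.33 and 0.56. Scaling by library totals alone moved the median contig by -0.87 and -0.56 in the contrasts with SB825. Under it the SMG and SMH differences of Bot_rep_c54243 became -1.17 and -1.20, with adjusted p-values of 0.026 and 0.027, those shifts of the median contig included. Without SMG library 2 the SMG minus SB825 difference was 0.17, and SMH minus SMG was -0.82 with an adjusted p of 0.094. Without SMG library 3 the latter was 0.08.

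The young to old difference itself was not called as different between lines for either homolog. The contigs were listed from this difference over all lines, which favours differences that are alike between lines, so nothing is read from the missing calls. The interaction of line and age was 0.38 (SE 1.01), 0.49 (SE 1.02) and 0.11 (SE 1.05) for Bot_rep_c54243 in SMG minus SB825, SMH minus SB825 and SMH minus SMG. For Bot_c899 it was 0.34 (SE 0.91), -1.10 (SE 0.92) and -1.44 (SE 0.92). The adjusted p-values in edgeR ran from 0.20 to 0.96. Of 42324 contigs, 69.8%, 45.5% and 66.2% were called in these contrasts, which again compare single colonies. The young libraries of a colony spread widely, from 2.67 to 12.6 CPM in SB825 and from 1.79 to 14.7 CPM in SMG for Bot_c899.

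Other contigs carried the same homolog names. These names come from 1998 rows of a longer list that the study made by age difference, so the direction of their old and young values was fixed by that choice. Glutamyl aminopeptidase was also the best human match of Bot_rep_c51053, Bot_rep_c54104 and Bot_rep_c48276, and all 4 contigs matched the same uncharacterized Ciona protein. ENPP1 was also the match of Bot_rep_c36556, and ENPP3 that of Bot_c16981. Whether such contigs are separate genes, alleles or pieces of 1 transcript was not tested, and reads from near-identical stretches could fall on any of them.

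The aminopeptidase contigs that held reads in young colonies differed by line. Bot_rep_c54104 was at 34.0 CPM in young SB825 and 26.96 CPM in young SMH, but at 0.209 CPM in young SMG. Bot_rep_c51053 was at 3.26 and 3.30 CPM in young SB825 and SMH and had 0 reads in all 3 young SMG libraries. The old SMG colony, at 13.9 CPM, was at least 245-fold higher for Bot_rep_c51053, taking 3 read pairs over the young SMG colony as the floor. Bot_rep_c48276 ran the other way, at 75.2 CPM in young SMG and 13.1 CPM in each of the other young colonies. Its 3 young SMG libraries spread widely, at 144.9, 43.7 and 15.4 CPM. The lowest of them lay within the range of the young SB825 libraries (6.99 to 17.6 CPM). Of the reads on the 4 contigs, Bot_rep_c48276 took 98.8% in young SMG and 83.7% in 2-year SMG, but 23.2% to 29.9% in the SB825 and SMH colonies at those ages. Bot_rep_c54243 took 0.898% to 4.92% over all colonies.

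**Figure D3:**
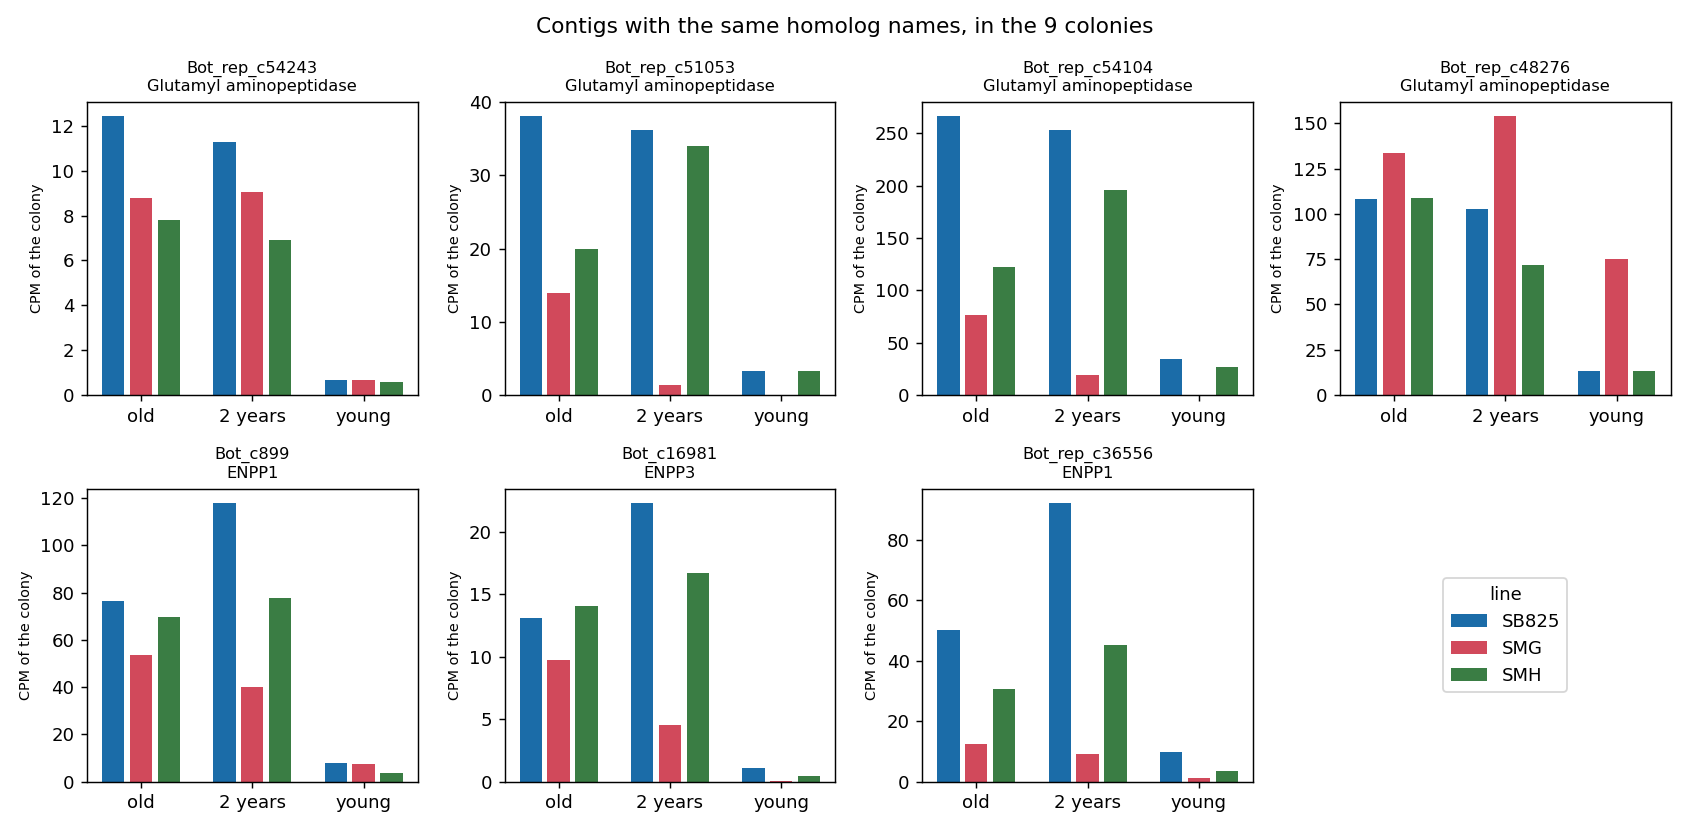
Bars are the CPM of each colony by age and line, from 0, with a separate scale for each contig; the upper row holds the 4 contigs matching Glutamyl aminopeptidase and the lower row the 3 matching ENPP1 or ENPP3. In SMG, Bot_rep_c54104 falls to 0.209 CPM in the young colony while Bot_rep_c48276 stands at 75.2 CPM (libraries at 15.4 to 144.9 CPM).

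In the interaction test, 4 of the 5 other contigs of these names were called in each contrast with SMG and 0 in SMH minus SB825, where 69.8%, 66.2% and 45.5% of all contigs were called, so calls at this rate are no trait of these contigs. Bot_rep_c54104 gave -5.66 (SE 0.64, edgeR adjusted p = 5.5e-06) for SMG minus SB825 and 6.4 (SE 0.64, adjusted p = 1.8e-06) for SMH minus SMG. Both rest on 2 to 18 reads of this contig in each young SMG library. Bot_rep_c48276 gave 2.03 (SE 0.83, adjusted p = 0.047) and -2.08 (SE 0.83, adjusted p = 0.045). Summed, the 4 aminopeptidase contigs stood at 232.4 to 425.7 CPM in old, 184.1 to 403.8 CPM in 2-year and 43.996 to 76.1 CPM in young colonies. The highest young sum was that of SMG, where Bot_rep_c48276 held 98.8% of the reads and ran from 15.4 to 144.9 CPM between libraries.

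The second ENPP1 contig followed Bot_c899 from library to library but at a ratio that differed by line and age, lowest in SMG. Bot_rep_c36556 was at 50.1, 12.4 and 30.6 CPM in old SB825, SMG and SMH, at 92.2, 9.20 and 45.3 CPM at 2 years, and at 9.94, 1.25 and 3.52 CPM in young colonies. Its reads were 65.4%, 78.1% and 128.5% of those of Bot_c899 in old, 2-year and young SB825. In the same order of ages they were 43.8%, 58.2% and 100% in SMH and 23.1%, 23.0% and 16.3% in SMG. It was the only one of the 5 other contigs called over ages, lower in SMG than in SB825 by a log2 difference of -2.77 (SE 0.34, edgeR adjusted p = 0.029, with 4.55% of contigs called). Within colonies its log2 deviations correlated with those of Bot_c899 at r = 0.975 over the 27 libraries, the highest of the 29962 contigs compared, a description over libraries that share colonies. The library highest for Bot_c899 was also highest for Bot_rep_c36556 in 9 of 9 colonies, and the lowest was the same in 7 of 9. Bot_c16981, the ENPP3 match, was at 12.3 ± 2.3 CPM in old, 14.5 ± 9.1 CPM in 2-year and 0.550 ± 0.525 CPM in young colonies (SD, n = 3 colonies each).

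At 2 years none of the 5 other contigs passed the test against the mean of old and young. Their log2 values were 0.80 (SE 0.57) for Bot_rep_c48276, 1.48 (SE 1.15) for Bot_rep_c54104, 1.72 (SE 1.30) for Bot_rep_c51053, 1.99 (SE 0.79) for Bot_rep_c36556 and 2.48 (SE 0.74) for Bot_c16981, with an adjusted p of 1.00 for each in edgeR. The fitted value of Bot_rep_c51053 rests on a colony at 0 reads and is no bound. For all 5 the value was above 0, as it was for 81.5% of the age-chosen rows they come from. Of the 42493 contigs also fitted for old against young, 49.5% were above 0.

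The 2 homologs varied together among libraries of the same colony. After each colony's mean was removed, their log2(CPM + 0.5) deviations correlated at r = 0.813 over the 27 libraries and at r = 0.880 over the 18 old and 2-year libraries. The median of all contigs with Bot_rep_c54243 was -0.080. Among 29962 contigs compared over the 27 libraries, Bot_c899 ranked 404 with Bot_rep_c54243, and Bot_rep_c54243 ranked 452 with Bot_c899. Many contigs thus followed each homolog more closely, and the shared variation is not particular to this pair. The lowest library of a colony was the same for both homologs in 9 of 9 colonies and the highest in 7 of 9. In 2-year SMG, for example, library 3 was highest and library 2 lowest for both. Libraries of the same colony are not independent, and these values carry no test.

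Over all 27 libraries, which fall into the young and the older ones, the pooled r of the homologs was 0.958. By this measure the 5 contigs most like Bot_rep_c54243 were Bot_c1425 (r = 0.968), matching Macrophage mannose receptor 1, a lectin receptor, the unclassifiable Bot_rep_c49910 (0.963), Bot_c7843 (0.959), matching the surface protease subunit Meprin A beta, Bot_rep_c45501 (0.958), matching Tryptophan 5-hydroxylase 1, the first enzyme of serotonin synthesis, and Bot_c899 itself. Those most like Bot_c899 were Bot_rep_c49910 (0.975), CAP3_round1_contig_7012 (0.970) and Bot_c1425 (0.969), both matching Macrophage mannose receptor 1, CAP3_round1_contig_7926 (0.965), matching the amino acid transport protein rBAT, and CAP3_round1_contig_4483 (0.964), matching the organic anion transporter SLCO4C1. The median r of the 29962 contigs at a mean of at least 1 CPM was 0.035 and 0.041. The first 100 contigs of the 2 homologs shared 63 members. By rank correlation, none of either 5 stayed among the first 5, and over the 9 colonies 1 of each did.

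Contigs named for digestive enzymes, taken here to mark the gut, moved with both homologs inside colonies. They were taken by name from the same age-chosen rows, so lower young sums were favoured by that choice. The 80 contigs matching trypsins, chymotrypsins, carboxypeptidases, amylases and lipases summed to 4931 to 6750 CPM in old, 3405 to 9723 CPM in 2-year and 555 to 1958 CPM in young colonies, and none was at 0 reads in all colonies of an age. Within colonies this sum correlated with Bot_rep_c54243 at r = 0.873 and with Bot_c899 at r = 0.777 over the 27 libraries. In old SB825 library 2 the digestive sum was only 710.4 CPM, within the range of the young libraries, while Bot_rep_c54243 was at 8.70 CPM and Bot_c899 at 64.3 CPM. In young SMG library 1 the sum was 4277 CPM, within the range of the older libraries. The homologs were there at 1.52 and 14.7 CPM, their highest young values and below every older library. Of the other aminopeptidase contigs, Bot_rep_c48276 was at 144.9 CPM in that library, within the range of its older libraries. Bot_rep_c54104 was at 0.457 CPM there and Bot_rep_c51053 had 0 reads. Whether gut content has a part in the age difference was not tested.

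Markers of testis and cilia did not move together with the homologs inside colonies. They too were taken by name from the age-chosen rows, so lower young sums were favoured by that choice. Their 32 contigs summed to 49.4 to 241.1 CPM in old, 108.1 to 379.1 CPM in 2-year and 3.28 to 52.0 CPM in young colonies, and none was at 0 reads in all colonies of an age. The within-colony r was -0.077 with Bot_rep_c54243 and -0.048 with Bot_c899. In SB825 the young sum, 52.0 CPM, was as high as the old one, 49.4 CPM, while both homologs were lower in the young colony. A part of testis content in the age difference was not tested.

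**Figure D4:**
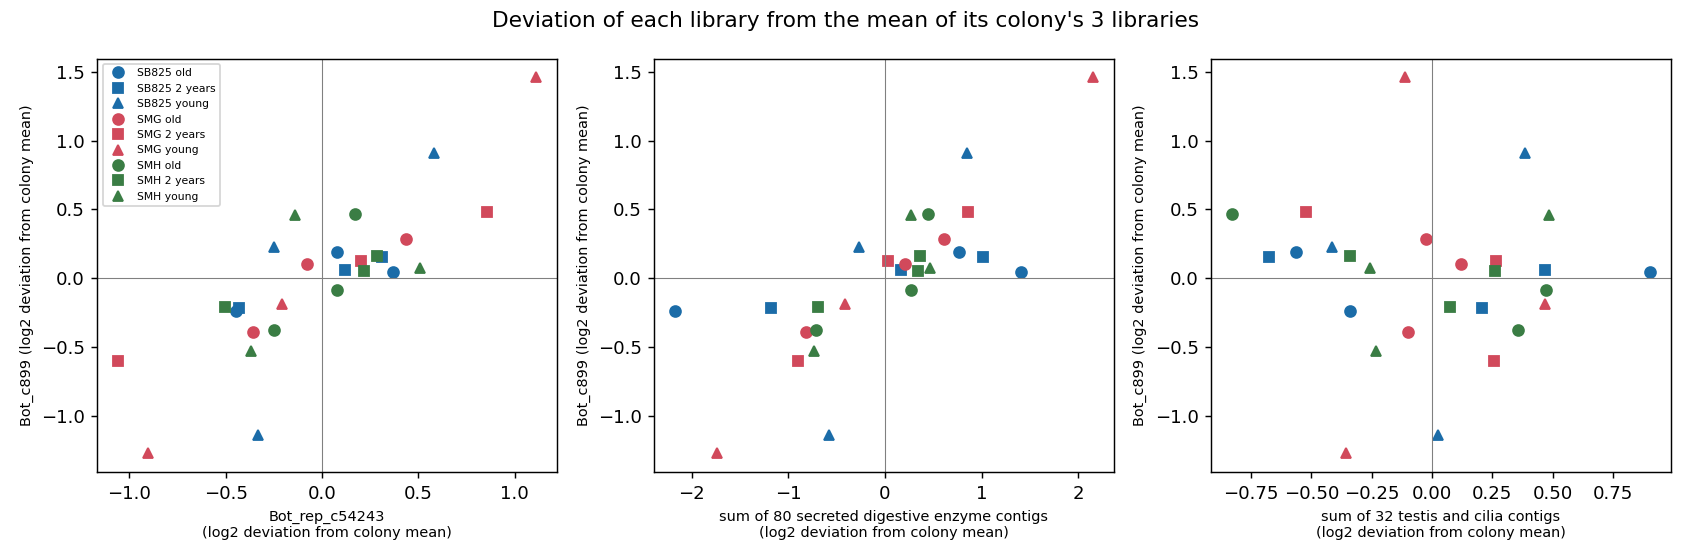
Each point is a library, given as its log2 deviation from the mean of the 3 libraries of its colony: Bot_c899 against Bot_rep_c54243 (left), against the summed digestive enzyme contigs (middle) and against the summed testis and cilia contigs (right). The values of r are 0.813, 0.777 and -0.048.

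Contigs matching other membrane peptidases and disaccharidases were followed as lists taken by homolog name from the same age-chosen rows. Where in the colony they are expressed was not tested. The 14 further membrane peptidases, which include matches to meprins, summed to 370.6 to 691.9 CPM in old, 403.9 to 669.9 CPM in 2-year and 54.3 to 133.9 CPM in young colonies. All 13 of them that could be fitted were lower in young colonies, with a median log2 difference of -2.48, as the choice of rows favours, against -0.07 over all contigs and -2.48 over the rows at hand. Their within-colony r was 0.873 with Bot_rep_c54243 and 0.927 with Bot_c899. The 7 disaccharidase contigs, which match enzymes splitting sugars at the brush border, gave 0.901 and 0.847. At 2 years 13 of 14 peptidases, 7 of 7 disaccharidases and 79 of 80 digestive enzymes lay above the mean of old and young, with 0 called in edgeR, against 81.5% of the 1888 rows at hand that were fitted.

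The contig of each list with the highest mean CPM, not corrected for length, had its lowest mean in young colonies. The choice of rows by age difference favours this. CAP3_round1_contig_8423, matching Meprin A beta, was at 159.5 ± 99.0 CPM in old, 217.8 ± 43.4 CPM in 2-year and 10.7 ± 8.6 CPM in young colonies (SD, n = 3 colonies each). CAP3_round1_contig_8388, matching the digestive protease precursor Chymotrypsinogen B2, was at 439.5 ± 103.0, 483.2 ± 222.5 and 60.9 ± 68.9 CPM. CAP3_round1_contig_2943, matching Lactase-phlorizin hydrolase, was at 59.9 ± 38.3, 46.8 ± 27.3 and 16.8 ± 8.7 CPM, with old and young colonies overlapping. Bot_rep_c36581, matching tissue-nonspecific Alkaline phosphatase, which in mammals degrades pyrophosphate, was at 16.8 ± 13.03, 11.9 ± 12.2 and 2.28 ± 2.45 CPM. It was below the old colony in each line, with the young colony at 4.997 against 31.2 CPM in SB825, 0.247 against 13.2 CPM in SMG and 1.59 against 5.91 CPM in SMH. Bot_rep_c45338, matching a testis-specific kinase, was at 66.5 ± 45.8, 86.1 ± 42.1 and 10.5 ± 15.9 CPM. In SB825 its young colony, at 28.9 CPM, lay above the old one, at 18.6 CPM.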

How the data were processed

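Whole-colony poly-A RNA was sequenced in paired ends on an Illumina HiSeq. The authors trimmed the reads at their start, aligned pairs with Bowtie 0.12.7 to an EST assembly and deposited raw read counts per contig (SAMtools 0.1.18). All counts are even, as both reads of a pair are counted. The authors' DESeq 1.10.1 comparison of old and young libraries, with fold changes and p-values, was not used. Contig sequences were not analysed here.

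Reads were added over the 3 libraries of a colony. Counts were fitted with edgeR 4.0.16 in R 4.3.3 (TMM, filterByExpr, robust glmQLFit, glmQLFTest) with Benjamini-Hochberg adjustment over all contigs and a threshold of 0.10, as in the study. Contrasts within 2 years and the interaction used single libraries, so their p-values measure the spread between libraries of a colony, which may be technical. Replicate library pairs differed by 4.43 to 121.0 times the sampling noise (chi-square per degree of freedom), so none was a duplicate. Deviations of colonies of a line correlated at 0.26 to 0.63, so the line pairs colonies. The fits were tested on simulated data. DESeq2 1.42.0, limma 3.58.1, other scalings, no filter, blocks and left-out libraries were alternatives.

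The contigs and lists were chosen with earlier results of these data known. Named contigs are the 2 homologs, contigs of the same homolog names, the contig of each list with the highest mean CPM and the 5 most alike by Pearson r of log2(CPM + 0.5). Floors are 3 read pairs. Intervals and floors cover counting error only.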

Additional observations from a re-analysis of the deposited data

Results flagged for a closer look

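The difference between young and old colonies varied by line in 4 of the 5 other contigs of the same homolog names, tested as an interaction in edgeR over the libraries of single colonies. Of all contigs 69.8% (SMG minus SB825) and 66.2% (SMH minus SMG) were called there, so 4 of 5 is near the background. For SMG minus SB825 the log2 values were -8.57 (adjusted p = 5.3e-04) for Bot_rep_c51053, -5.66 for Bot_rep_c54104, 2.03 for Bot_rep_c48276 and -3.91 (adjusted p = 0.0026) for Bot_c16981. For SMH minus SMG they were 9.49 (adjusted p = 1.7e-04), 6.4, -2.08 and 2.60 (adjusted p = 0.047). Those of Bot_rep_c51053 rest on 0 reads in the young SMG libraries and are no bound. The young SMG libraries also held few reads of Bot_c16981 (0 to 6 each) and of Bot_rep_c54104 (2 to 18 each).

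A single library stood apart from the other libraries of its age in 3 of 21 groups of 9. For independent libraries the rule gives about 1 in 20 by chance. The libraries here fall into colonies of differing level, so that rate does not hold and no excess is read. For Bot_rep_c48276 these were 2-year SMG library 3, at 266.7 CPM against 151.0 CPM for the next (gap of 0.566 of the range), and young SMG library 1, at 144.9 against 43.7 CPM (0.734). For Bot_c16981 it was young SB825 library 3, at 1.79 against 0.864 CPM (0.518). No group of Bot_rep_c54243 or Bot_c899 held such a library.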

How the results depend on the processing

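For the 2-year level against the mean of old and young, DESeq2 called 118 contigs and gave 1.84 and 1.92 for Bot_rep_c54243 and Bot_c899, and 27 separate libraries called 4596 and gave 1.98 (adjusted p = 0.0016) and 2.02 (adjusted p = 3.4e-04). On the same libraries, with a random colony effect, limma called 0 and gave 1.67 and 1.90 (adjusted p = 1.00 for each). The values without 1 line ran from 1.80 to 1.92 and from 1.67 to 2.29, with 0 contigs called. Over the alternatives the adjusted p ran from 2.3e-06 to 1.00 for Bot_rep_c54243 and from 3.4e-04 to 1.00 for Bot_c899. Treating libraries of a colony as independent is an assumption the design does not grant. Old and young values kept their size, from -4.02 to -3.76 and from -3.73 to -3.08 without 1 line.

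For line differences over ages (SMG minus SB825, SMH minus SB825, SMH minus SMG), DESeq2 called 9393, 6156 and 4527 contigs and 27 separate libraries 23596, 19882 and 18351, against 2040, 639 and 208. Library totals alone called 4755 and 1539 in the first 2. Leaving out an age left 0 to 1323, 0 and 0 called, with fewer colonies. The SMH minus SMG difference of Bot_c899 was -0.015 with median-of-ratios size factors, -0.014 in DESeq2, and from -0.35 to 0.62 with an age left out. The other differences over ages ran without 1 age from -0.38 to -0.16, -0.69 to -0.43 and -0.30 to -0.18 for Bot_rep_c54243, and from -1.01 to -0.23 and -0.81 to -0.39 for Bot_c899.

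At 2 years, SMH minus SB825 of Bot_c899 passed the threshold with median-of-ratios size factors (-0.58, adjusted p = 0.088), in DESeq2 (-0.58, adjusted p = 0.034), under library totals (-1.12, adjusted p = 4.1e-05) and with the replicate number as a block (-0.58, adjusted p = 0.095). It ran from -0.67 to -0.46 with a library left out and passed in 3 of 9. Library totals gave -1.17 and -1.20 for Bot_rep_c54243. With a library left out, Bot_rep_c54243 ran from -0.73 to 0.17, -0.86 to -0.42 and -0.82 to 0.079, and the other differences of Bot_c899 from -1.75 to -1.24 and 0.68 to 1.19. Deviations of libraries with the same number correlated at -0.32 to 0.18, so the numbers do not pair libraries, and the replicate block called 25011, 22851 and 18690 contigs against 25618, 23516 and 19647.

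The interaction without 1 replicate number ran from -1.51 to 1.25, 0.24 to 0.64 and -1.01 to 2.10 for Bot_rep_c54243 and from -0.78 to 1.17, -1.77 to -0.69 and -2.19 to 0.085 for Bot_c899, called in none. Contigs called in SMH minus SB825 were 12766 to 16437 against 19273. The replicate block changed no call there. Young libraries hold 0 to 60 reads of Bot_rep_c54243, which limits their precision.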
